A study of Mus musculus with 4 samples.

Results

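The 7 genes described here carry high-energy phosphate between the mitochondrial matrix and the sites in cardiomyocytes that consume ATP: the creatine kinases Ckm, Ckb and Ckmt2, the ADP/ATP carriers Slc25a4 and Slc25a5, the phosphate carrier Slc25a3 and the outer membrane channel Vdac1. They were chosen by name with earlier results of these data known, so counts of them past a fold are a description. All 7 were among the 22574 genes of a single-nucleus RNA sequencing matrix of neonatal mouse cardiomyocytes. The matrix held 1 library for each of 4 groups on a C57BL/6 background, and every mouse carried a loxP-flanked Nrf1 gene. KO mice also carried the aMHC-Cre transgene, which expresses Cre in cardiomyocytes, and the controls, called WT, had the loxP sites without Cre. At postnatal day 3 the pups had myocardial infarction (MI), made by tying a coronary artery, or a Sham operation, and hearts were collected 1 day later per the study's methods. Each library, called WT-Sham, WT-MI, KO-Sham or KO-MI, pooled tissue from 4 to 6 hearts taken below the ligation plane or at the matching level, so there were no replicates and no difference has a test.

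ATP made in the mitochondrial matrix leaves it in exchange for ADP through the ADP/ATP carriers, which sit in the inner membrane. Slc25a4 encodes the carrier form typical of heart and skeletal muscle, and Slc25a5 encodes a form found in most dividing and non-muscle tissues. Slc25a3 brings in the phosphate that ATP synthase needs, and it also imports copper. Ckmt2, the sarcomeric mitochondrial creatine kinase, lies between the inner and outer membranes and passes the phosphate of the exported ATP to creatine. Vdac1 is an abundant pore of the outer membrane. Phosphocreatine is turned back into ATP near the myofibrils and ion pumps by cytosolic creatine kinase, whose muscle subunit is Ckm and whose brain-type subunit is Ckb. In the maturing heart the muscle subunit takes over from the brain-type subunit, and the energy transfer system is known to decline in failing hearts.

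In the GENCODE M21 annotation of GRCm38, Ckm lies on the plus strand at chr7:19404776-19422841, Ckb on the minus strand at chr12:111669361-111672338 and Ckmt2 on the minus strand at chr13:91853387-91876885. The carriers Slc25a4 and Slc25a3 lie on the minus strand at chr8:46206797-46211284 and chr10:91116574-91124059. Slc25a5 lies on the plus strand of the X chromosome at chrX:36795651-36798807, and Vdac1 on the plus strand at chr11:52360860-52389397. Antisense genes overlap Ckm (A930016O22Rik, 49 to 88 UMIs per library) and Ckmt2 (1700119I11Rik, 3 to 10 UMIs per library), and their reads may be part of the counts of the coding gene or the reverse, since the use of strand in the counting is not given in the sources used here. Reads from the nucleus were counted in introns as well as in exons, so a value covers unspliced RNA.

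The bases just before the RefSeq start of the 3 creatine kinases are shown because these genes differed in direction after MI. They come from RefSeq on GRCm38.p6 and are read 5′ to 3′ on the strand of the gene, from 250 bases before the start. Ckm is at chr7:19410844-19411024, within the longer gene of M21, where 69 further bases that M21 places in an exon were left out. Ckb is at chr12:111672339-111672588 and Ckmt2 at chr13:91876886-91877135. Capitals mark the antioxidant response element core TGACNNNGC, which Nrf1 and its relatives are known to bind, the E box CAGCTG and the CCAAT box CCAAT, each searched on both strands, and no matches of different motifs overlapped.
Ckm: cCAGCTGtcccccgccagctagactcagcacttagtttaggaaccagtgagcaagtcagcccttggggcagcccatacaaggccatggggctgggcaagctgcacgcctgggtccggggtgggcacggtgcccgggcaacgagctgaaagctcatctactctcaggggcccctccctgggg
Ckb: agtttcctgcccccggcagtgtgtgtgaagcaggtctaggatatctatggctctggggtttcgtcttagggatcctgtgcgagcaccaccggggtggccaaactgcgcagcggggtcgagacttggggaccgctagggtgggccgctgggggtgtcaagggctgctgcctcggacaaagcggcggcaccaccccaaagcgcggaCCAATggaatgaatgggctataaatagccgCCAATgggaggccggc
Ckmt2: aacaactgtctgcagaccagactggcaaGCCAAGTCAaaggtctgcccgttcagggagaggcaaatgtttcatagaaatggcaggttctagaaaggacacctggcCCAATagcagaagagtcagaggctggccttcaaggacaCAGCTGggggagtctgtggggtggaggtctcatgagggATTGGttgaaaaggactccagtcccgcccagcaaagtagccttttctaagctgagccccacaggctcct

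The 3 windows had no motif in common. Ckm held 1 E box at -249, counted from the start, and Ckb held 2 CCAAT boxes at -46 and -16. Ckmt2 held an antioxidant response element core at -222, an E box at -107 and CCAAT boxes at -145 and -69. In all 7 genes the element core was also found 48 bases before the start of Slc25a3 and 106 bases before that of Slc25a5. Slc25a4 held 2 CCAAT boxes at -112 and -56, and the 2 windows of Vdac1 held none of the 3 motifs. M21 places the last 222 bases of the Slc25a4 window and the last 92 of the Slc25a3 window within the gene. The matches of Slc25a4 and Slc25a3 lie in those bases. Of the 32851 windows of 250 bases in the RefSeq table, 10.2% held the element core, 13% the E box and 33.8% the CCAAT box, so such matches are frequent, and they are a description of letters only.

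The libraries held 1406 nuclei and 4984625 UMIs (WT-Sham), 2003 and 7955986 (WT-MI), 3328 and 9106522 (KO-Sham) and 1848 and 7359887 (KO-MI), where a UMI is a count of 1 captured RNA molecule. Nuclei carried the study's population labels CM1 (CM1 and CM3 together, 1098 to 2619 nuclei per library), CM2 (27 to 124), CM4 (118 to 351) and CM5 (89 to 355). Levels are given as CPM, a gene's UMIs scaled to the total UMIs of the nuclei of 1 population in 1 library, so each value is relative to the rest of the RNA of those nuclei, and fewer molecules per nucleus cannot be told apart from more RNA of other genes. All intervals are exact 95% intervals and cover counting error only, since nuclei of 1 pool are not replicates. The 10 cardiomyocyte markers summed to 26896 to 48981 CPM in the 16 sums of a population and a library. The study picked its cardiomyocyte clusters by Tnnt2, which is among these markers, so the sums do not test the label. Nfe2l1, the gene that encodes Nrf1, was at 61.4 and 53.3 CPM in CM1 of WT-Sham and KO-Sham, and at 44.1 and 57.7 CPM in WT-MI and KO-MI. The library labelled KO-MI was thus 0.39 higher on the log2 scale than WT-MI (0.14 to 0.63), against the label, so every direction drawn from KO-MI rests on its label, and the counts do not show whether the remaining RNA lacks the deleted part. In the Sham pair of CM1 the log2 ratio of Nfe2l1 was -0.20 (-0.44 to 0.03), beside a median of -0.12 over all genes. That interval holds 0, so directions drawn from KO-Sham in CM1 rest on its label too. Over all nuclei the ratio of the Sham pair was -0.30 (-0.51 to -0.09). The library labelled KO-Sham had the shallowest nuclei (median 2572 UMIs, against 3553.5 to 3959) and the highest mitochondrial share in CM1 (median 8.78%, against 5.05% to 6.13%). Of 8576 barcode sequences, 9 were found in 2 or more libraries.

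The first comparison asked how energy transfer genes differed after infarction within the main population, CM1. Ckm stood at 692 CPM in WT-Sham, 381 in WT-MI, 1181 in KO-Sham and 489.7 in KO-MI. Both MI libraries lay below both Sham libraries, with no overlap of the intervals. The log2 ratio of Ckm was -0.86 (-0.94 to -0.78) for WT-MI over WT-Sham, and for KO-MI over KO-Sham it was -1.27 (-1.33 to -1.21). The share of CM1 nuclei with at least 1 Ckm UMI was 90.0% in WT-Sham, 78.2% in WT-MI, 95.3% in KO-Sham and 84.1% in KO-MI.

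Ckmt2 went the other way. Its level in CM1 was 192 CPM in WT-Sham, 360.4 in WT-MI, 187 in KO-Sham and 245 in KO-MI. The WT-MI library was the highest, the 2 Sham libraries were within counting error of each other, and KO-MI lay between. The log2 ratio of Ckmt2 was 0.91 (0.79 to 1.03) for WT-MI over WT-Sham and 0.39 (0.28 to 0.50) for KO-MI over KO-Sham. Ckmt2 UMIs were found in 62.9% of CM1 nuclei of WT-MI and in 41.5% of those of WT-Sham.

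Ckb, the least counted of the creatine kinases, stayed near its Sham level in CM1. It stood at 49.6 CPM in WT-Sham, 47.6 in WT-MI, 71.8 in KO-Sham and 63.7 in KO-MI. The intervals of its log2 ratio after MI held 0 in both genotypes, from -0.33 to 0.21 around -0.06 in WT and from -0.37 to 0.03 around -0.17 in KO. The sign in WT turned to 0.01 with TMM scaling, so no direction is given for it.

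The carriers and the pore were all lower after MI in CM1, and the genotypes differed most in Sham. Slc25a4, the muscle form of the ADP/ATP carrier, stood at 2028 CPM in WT-Sham, 1570.2 in WT-MI, 3519 in KO-Sham and 1954 in KO-MI. KO-Sham stood far above the other libraries, which were within a fold of 1.5 of each other. Its log2 ratio after MI was -0.37 (-0.41 to -0.33) in WT and -0.85 (-0.88 to -0.82) in KO. Slc25a5 was at 202, 176, 364 and 206 CPM in WT-Sham, WT-MI, KO-Sham and KO-MI, and Slc25a3 was at 700.5, 575, 1028 and 655 CPM. Both were highest in KO-Sham and lowest in WT-MI, as Slc25a4 was, with the WT log2 ratios after MI at -0.20 (-0.33 to -0.06) and -0.28 (-0.36 to -0.21) and the KO log2 ratios at -0.82 (-0.92 to -0.72) and -0.65 (-0.71 to -0.59). Vdac1 varied least, from 186 CPM in WT-MI to 253 CPM in KO-Sham, and its log2 ratio after MI was -0.25 in both genotypes.

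**Figure D1:**
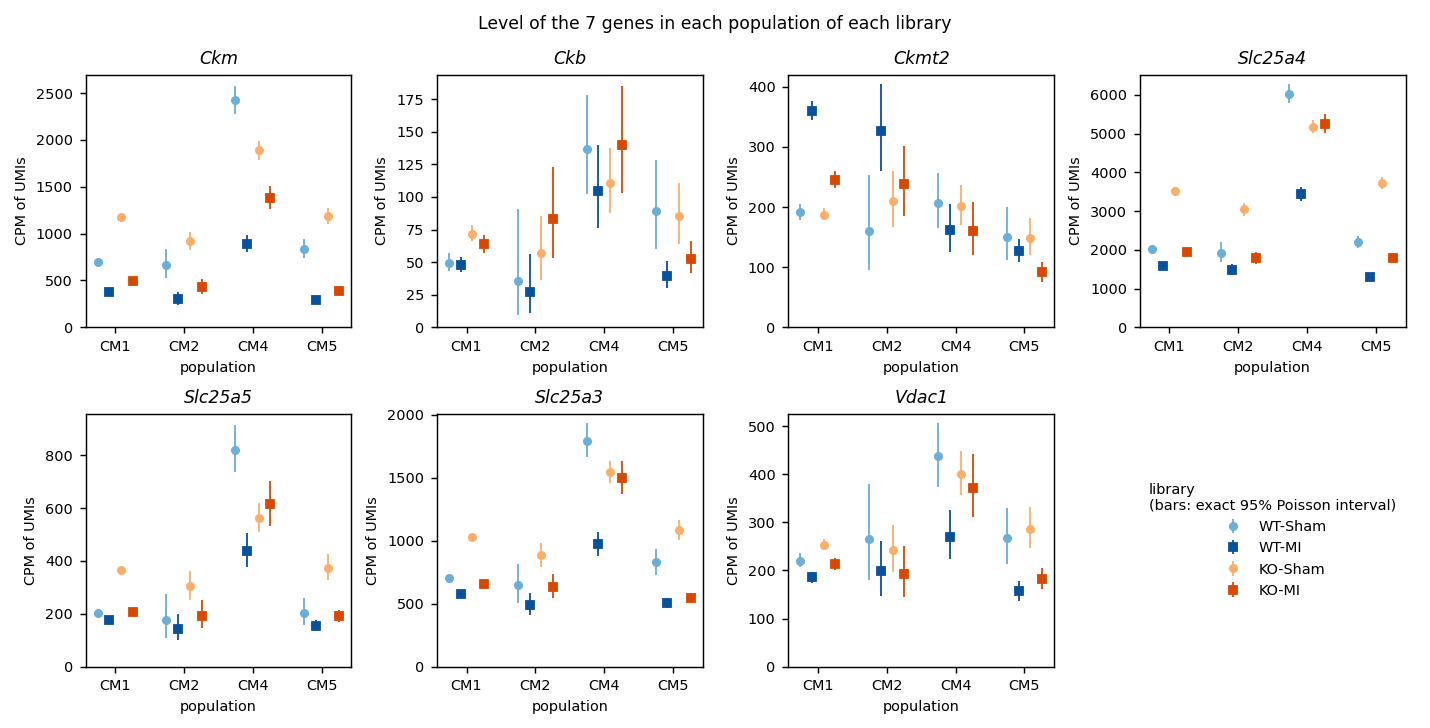
Level of each of the 7 genes in CPM of UMIs (vertical axis, from 0, with its own scale per gene) in populations CM1, CM2, CM4 and CM5 (horizontal axis) of the 4 libraries, 1 point per library and population, with exact 95% Poisson intervals as bars. In CM1 Ckm runs from 381 CPM (WT-MI) to 1181 CPM (KO-Sham), Ckmt2 is highest in WT-MI (360.4 CPM), and CM4 holds the highest values of every gene but Ckmt2.

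A gene was counted as past the fold where it differed by 1.5-fold or more with at least 50 UMIs over both sums. For WT-MI over WT-Sham in CM1, 1 of the 7 genes was past it upward (Ckmt2) and 1 downward (Ckm), against 8.08% of 10574 genes upward and 11.9% downward. For KO-MI over KO-Sham, none of the 7 was past it upward and 4 were past it downward (Ckm, Slc25a3, Slc25a4 and Slc25a5), against 10.0% and 10.9% of 11150 genes. The median log2 ratio of the 7 genes was -0.25 in WT and -0.65 in KO, beside -0.07 and 0.04 over all genes. Of the 10 cardiomyocyte markers, the lowest after MI was Pln (-1.10 in WT and -1.33 in KO) and the highest was Myh7 (0.70 and 1.52). Markers of other cells differed too, and the myeloid list summed to 58.1 CPM in WT-Sham, 126 in WT-MI, 41.0 in KO-Sham and 85.7 in KO-MI, and the red blood cell list (5 genes) to 2545, 3829, 1891 and 2025 CPM. Among nuclei where markers of other cells, red blood cells not counted, took a low share, the ratios after MI were -0.88 (WT) and -1.29 (KO) for Ckm and 1.06 and 0.37 for Ckmt2, and the part of red blood cell RNA was not tested.

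**Figure D2:**
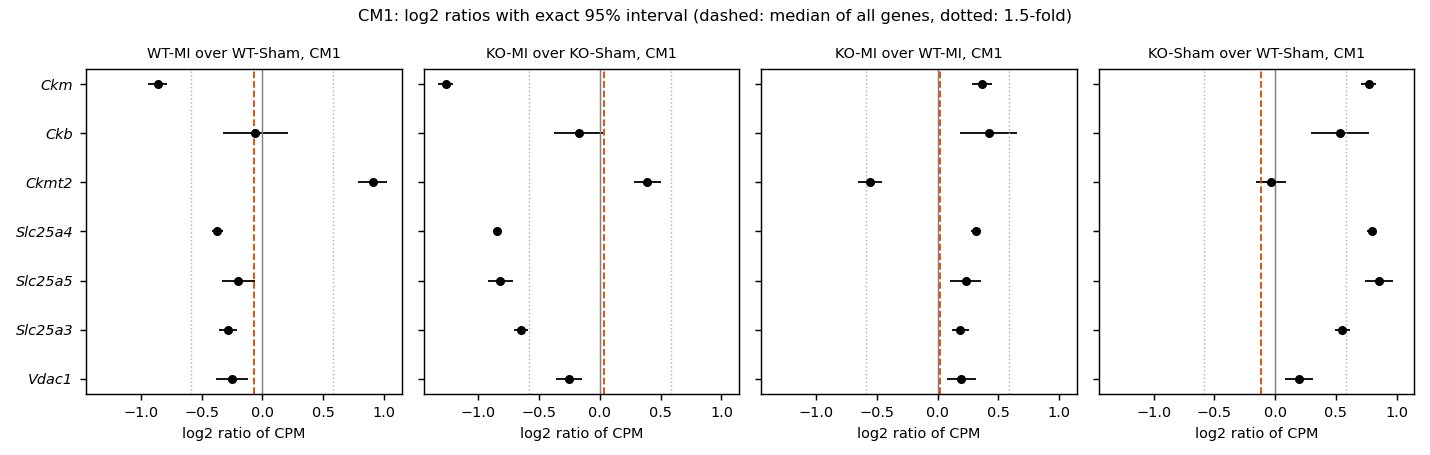
Log2 ratio of CPM (horizontal axis) of the 7 genes (vertical axis) in CM1 for WT-MI over WT-Sham, KO-MI over KO-Sham, KO-MI over WT-MI and KO-Sham over WT-Sham, with exact 95% intervals as bars, the median of all genes as a dashed line and a 1.5-fold difference as dotted lines. Ckm is the lowest of the 7 after MI in both genotypes (-0.86 and -1.27), and Ckmt2 is the only one above 0 (0.91 and 0.39).

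The second comparison asked what differed between the genotypes, and it uses the same 4 libraries, so the values are given side by side. Between the Sham libraries, 6 of the 7 genes were higher in KO-Sham. Ckm differed by 0.77 on the log2 scale (0.71 to 0.83), Slc25a4 by 0.79 (0.76 to 0.83) and Slc25a5 by 0.85 (0.74 to 0.97), and these 3 were past 1.5-fold, against 6.21% of 10910 genes upward and 4.09% downward. Slc25a3 was at 0.55 (0.49 to 0.62), Ckb at 0.53 (0.30 to 0.77) and Vdac1 at 0.20 (0.08 to 0.32), short of that fold. Ckmt2 was at -0.03 (-0.16 to 0.09), which is within counting error of no difference. Of the 10 cardiomyocyte markers, 3 were past the fold upward in this pair and none downward, against the same 6.21% and 4.09% of all genes. The markers ran from Actc1 at 0.94 to Myh7 at -0.31, with a list median of 0.19. TMM scaling moved all genes of this pair by 0.12, from a median of -0.12, and relative to that median Ckm stood at 0.89, Slc25a4 at 0.91, Slc25a5 at 0.97, Slc25a3 at 0.67, Ckb at 0.65, Vdac1 at 0.32 and Ckmt2 at 0.08. On the TMM scale 5 of the 7 genes were past the fold upward, and 9.69% of all genes were past it upward and 2% downward. Markers of other cells in CM1 of KO-Sham and WT-Sham summed to 109 and 80.2 CPM for the endothelial list (7 genes), 935 and 1048 CPM for the fibroblast list (7 genes) and 41.0 and 58.1 CPM for the myeloid list (7 genes), and among nuclei with a low share of these UMIs the ratios of Ckm, Slc25a4 and Slc25a5 were 0.76, 0.83 and 0.94.

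Between the MI libraries the differences were smaller, and none of the 7 genes was past 1.5-fold in CM1, against 2.33% of 10780 genes upward and 1.81% downward. The log2 ratios of 6 genes lay above 0 for the library labelled KO-MI over WT-MI, from 0.19 for Slc25a3 (0.12 to 0.26) and 0.20 for Vdac1 (0.08 to 0.32) to 0.36 for Ckm (0.28 to 0.44) and 0.42 for Ckb (0.19 to 0.66). Ckmt2 alone lay below it, at -0.55 (-0.66 to -0.45), just short of the fold, which is 0.58 on this scale. Red blood cell markers were lower in KO-MI, at 2025 against 3829 CPM, with 4 of 5 past the fold downward, and 3 of 7 myeloid markers were past it downward. The part of these lists in the ratios was not tested. In this pair Ckmt2 was past the fold downward among nuclei thinned to 1000 UMIs (-0.63) and among nuclei with a low share of UMIs of markers of other cells (-0.61).

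The libraries differed in mitochondrial share, so CM1 was divided by the percent of UMIs from the mitochondrial genome. Ckm was higher in bands of higher share within the Sham libraries, at 555 and 1034 CPM in WT-Sham and 849 and 1309 CPM in KO-Sham for nuclei under 5% and nuclei of 10 to 20%. Within each of the 4 bands both MI libraries were below both Sham libraries for Ckm. In the band from 5% to 7.5%, Ckm was at 674 CPM in WT-Sham, 407 in WT-MI, 1069 in KO-Sham and 508 in KO-MI. Ckmt2 was highest in WT-MI in every band, at 314 to 379 CPM, and KO-Sham was highest in every band for Slc25a4, at 2588 to 3892 CPM. In nuclei of 5% to 10% the log2 ratios after MI were -0.78 (WT) and -1.06 (KO) for Ckm and 0.78 and 0.35 for Ckmt2, and KO-Sham over WT-Sham was 0.67 for Ckm, 0.70 for Slc25a4 and 0.82 for Slc25a5. The differences given here kept their direction among nuclei of 5% to 10%. In these nuclei 10 of the 28 ratios of CM1 lay outside the interval found in all CM1 nuclei. The part of mitochondrial share and RNA quality in the differences was not tested.

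**Figure D3:**
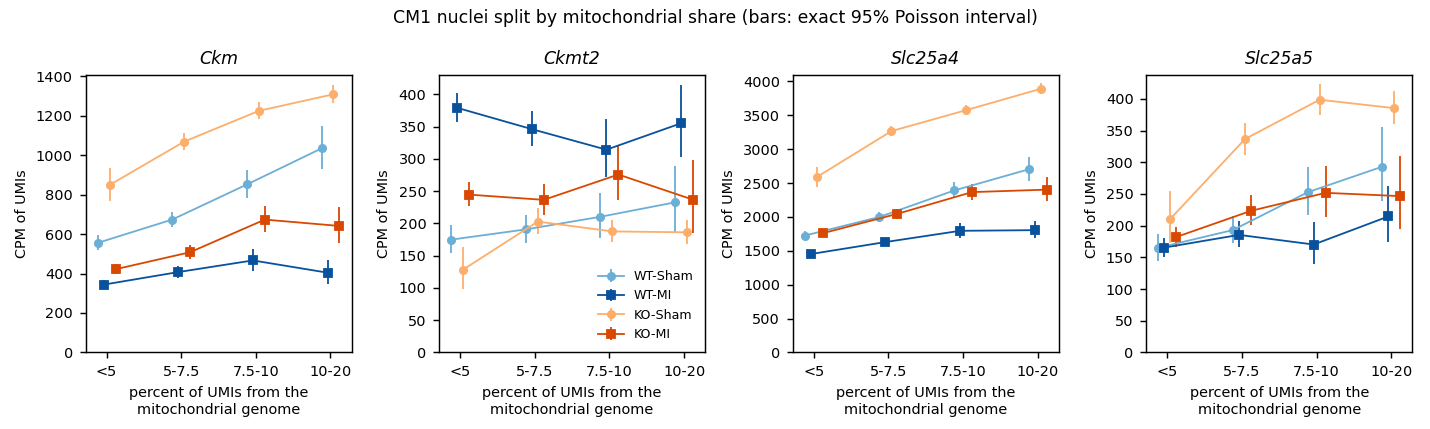
Level of Ckm, Ckmt2, Slc25a4 and Slc25a5 in CPM of UMIs (vertical axis, from 0) in CM1 nuclei grouped by the percent of their UMIs from the mitochondrial genome (horizontal axis, 4 bands), 1 line per library, with exact 95% Poisson intervals as bars. In each band the MI libraries lie below the Sham libraries for Ckm (674 and 1069 against 407 and 508 CPM in the band from 5% to 7.5%), and WT-MI is highest for Ckmt2.

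The isoform ratios do not depend on library scaling, since both genes are counted in the same nuclei, and they were compared between sums only, because genes of different length are not captured alike. In CM1 the ratio of Ckb to Ckm UMIs was 0.0717 in WT-Sham (0.0619 to 0.0826), 0.125 in WT-MI (0.110 to 0.142), 0.0608 in KO-Sham (0.0556 to 0.0664) and 0.130 in KO-MI (0.116 to 0.146). The 2 MI libraries lay above the 2 Sham libraries with no overlap of the intervals. The log2 difference after MI was 0.80 (0.52 to 1.08) in WT and 1.10 (0.88 to 1.31) in KO. Between genotypes it was 0.06 (-0.19 to 0.31) for the MI pair and -0.24 (-0.48 to 0.01) for the Sham pair, so at this depth no genotype difference was detectable. In CM1 the ratio thus moved with Ckm, while Ckb stayed near its Sham level.

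The values were in the same direction in the other populations, with wider intervals. In CM4 the ratio was 0.0564 and 0.117 in WT-Sham and WT-MI and 0.0587 and 0.101 in KO-Sham and KO-MI, with log2 differences after MI of 1.06 (0.42 to 1.69) and 0.79 (0.22 to 1.34). The KO value was -0.40 (-2.18 to 1.08) among CM4 nuclei where markers of other cells took a low share, so its direction was not kept there. In CM5 the log2 difference was 0.95 (0.40 to 1.51) in KO and 0.37 in WT, where the interval ran from -0.34 to 1.10. In CM2, which held 4 Ckb UMIs in WT-Sham and 7 in WT-MI, it was 1.63 (0.69 to 2.58) in KO and 0.77 (-1.28 to 3.04) in WT.

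The ratio of Slc25a5 to Slc25a4 varied little. Over the 16 sums it ran from 0.0926 to 0.136, and in CM1 it was 0.0994 in WT-Sham, 0.112 in WT-MI, 0.104 in KO-Sham and 0.106 in KO-MI. The log2 difference after MI was 0.17 (0.03 to 0.31) in WT and 0.03 (-0.08 to 0.14) in KO, and between genotypes it was -0.08 (-0.22 to 0.05) and 0.06 (-0.06 to 0.18). The highest ratio was that of CM4 in WT-Sham, at 0.136 (0.121 to 0.153). It was 0.46 above CM1 of the same library on the log2 scale (0.26 to 0.65), and KO-Sham CM4 lay 0.33 below it, a log2 difference of -0.33 (-0.56 to -0.10).

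**Figure D4:**
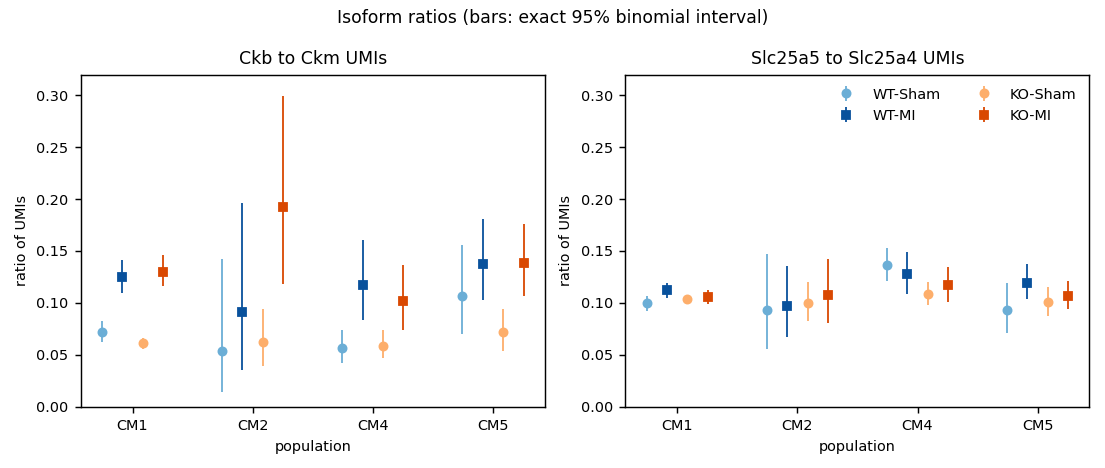
Ratio of UMIs of Ckb to Ckm (left) and of Slc25a5 to Slc25a4 (right), on the vertical axis from 0, in each population (horizontal axis) of the 4 libraries, with exact 95% binomial intervals as bars. In CM1 the Ckb to Ckm ratio is 0.125 and 0.130 in the MI libraries and 0.0717 and 0.0608 in the Sham libraries, while the Slc25a5 to Slc25a4 ratio stays between 0.0926 and 0.136 throughout.

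Further ratios within the set were chosen after the levels had been seen. The ratio of mitochondrial to muscle creatine kinase, Ckmt2 to Ckm, was 0.277 in CM1 of WT-Sham, 0.946 in WT-MI, 0.159 in KO-Sham and 0.501 in KO-MI. After MI it was higher by 1.77 (1.63 to 1.91) on the log2 scale in WT and by 1.66 (1.53 to 1.79) in KO, and it was lower in KO than in WT in both pairs, with log2 differences of -0.92 (-1.05 to -0.79) after MI and -0.81 (-0.95 to -0.66) after Sham. The ratio of Ckm to Slc25a4 was 0.341 and 0.336 in the Sham libraries and 0.243 and 0.251 in the MI libraries, and the intervals of the log2 difference between genotypes ran from -0.09 to 0.05 (Sham) and from -0.04 to 0.14 (MI). Vdac1 to Slc25a4 was lowest in KO-Sham, at 0.0720 against 0.109 to 0.118 in the other libraries, and its log2 difference for KO-Sham over WT-Sham was -0.60 (-0.72 to -0.47). Ckm and Slc25a4 thus stood higher together in KO-Sham, and Vdac1 less so.

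The study clustered the populations on expression, so differences between them are a description. In every library CM4, which the study describes as a regenerative population, held the highest level of every gene but Ckmt2. In CM4 Ckm stood at 2422 CPM in WT-Sham, 890.0 in WT-MI, 1889 in KO-Sham and 1379 in KO-MI. Slc25a4 stood at 6026, 3429, 5181 and 5249 CPM in the same order, Slc25a3 at 1795, 973, 1544 and 1496 CPM, and Slc25a5 at 822, 437, 561 and 614 CPM. WT-MI was the lowest of the 4 libraries for each of these genes. Vdac1 had the same lowest library, at 271 CPM, against 372 to 437 CPM. Ckb held 44 to 81 UMIs per library in CM4 and stood at 104 to 139.7 CPM, and these levels were within counting error of each other.

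Over CM1 of the same library, the log2 ratios of CM4 for Ckm were 1.81 in WT-Sham (1.70 to 1.91), 1.22 in WT-MI (1.06 to 1.38), 0.68 in KO-Sham (0.59 to 0.76) and 1.49 in KO-MI (1.35 to 1.64), beside medians over all genes of -0.43, -0.09, -0.11 and -0.22. Of the 7 genes, 6, 5, 5 and 6 were past 1.5-fold upward in WT-Sham, WT-MI, KO-Sham and KO-MI, where 23.4%, 26.4%, 16.6% and 26.0% of all genes were. Downward, Ckmt2 was past it in WT-MI (-1.16, -1.53 to -0.81) and in KO-MI (-0.62, -1.03 to -0.23) and no gene was in the Sham libraries, beside 28.1%, 36.9%, 45.2% and 20.4% of all genes in WT-MI, KO-MI, WT-Sham and KO-Sham. In the Sham libraries Ckmt2 was at 0.11 (-0.24 to 0.44) and 0.10 (-0.15 to 0.35), with intervals that held 0. CM4 also carried a higher mitochondrial share (median 9.47% to 14.6%), fewer UMIs per nucleus and more RNA of other cells. The median was 1715.5 to 2394 UMIs per nucleus in CM4 and 2632 to 4043.5 in CM1. Fibroblast markers summed to 2011 to 2481 CPM in CM4 and 905 to 1048 CPM in CM1, endothelial markers to 289 to 445 CPM and 80.2 to 109 CPM, and red blood cell markers to 3538 to 12805 CPM and 1891 to 3829 CPM. Among nuclei with 10 to 20% mitochondrial UMIs in both populations, the log2 ratio of Ckm was 1.19, 1.25, 0.56 and 1.23 in WT-Sham, WT-MI, KO-Sham and KO-MI. The KO-Sham value was short of the fold. In these nuclei 12 of the 28 ratios of CM4 over CM1 lay outside the interval found in all nuclei, and 27 kept their sign. In nuclei thinned to 1000 UMIs, 16 of the 56 ratios of CM4 or CM5 over CM1 did, and 53 kept their sign. The part of other cells in these differences was not tested.

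**Figure D5:**
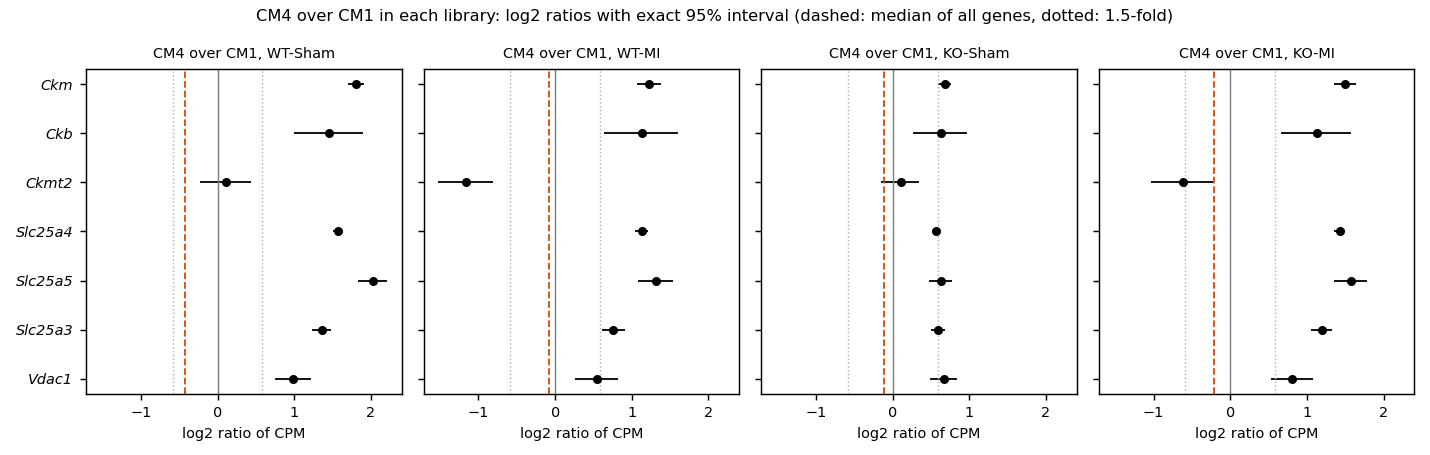
Log2 ratio of CPM (horizontal axis) in CM4 over CM1 of the same library for the 7 genes (vertical axis), 1 panel per library, with exact 95% intervals as bars, the median of all genes as a dashed line and a 1.5-fold difference as dotted lines. Ckmt2 differs from the other genes, at 0.11 and 0.10 in the Sham libraries and -1.16 and -0.62 in WT-MI and KO-MI, while Ckm runs from 0.68 to 1.81.

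Within CM4 the ratios after MI differed in size between the WT and the KO pair of libraries, and this difference was not tested. WT-Sham CM4 had the highest median mitochondrial share, 14.6% against 9.47% to 11.6%. It also had the most red blood cell RNA, 12805 CPM against 3538 to 8411 CPM. The part of either was not tested, and KO-MI rests on its label. For WT-MI over WT-Sham, all 7 log2 ratios were below 0 and 5 were past 1.5-fold downward, against 16.1% of 2622 genes downward and 25.2% upward. Ckm was at -1.44 (-1.62 to -1.27), Slc25a5 at -0.91 (-1.18 to -0.65), Slc25a3 at -0.88 (-1.06 to -0.71), Slc25a4 at -0.81 (-0.91 to -0.72) and Vdac1 at -0.69 (-1.05 to -0.34). The median of all genes was 0.13 and TMM scaling moved it by -0.17, and relative to that median the 5 genes stood at -1.58 to -0.82. For KO-MI over KO-Sham none of the 7 was past the fold, beside 15.1% of 3378 genes upward and 16.9% downward, and Slc25a4 was at 0.02 (-0.06 to 0.10). Ckm was lower there, at -0.45 (-0.61 to -0.30). Among CM4 nuclei with a low share of UMIs of markers of other cells, Ckm was at -1.23 (-1.70 to -0.77) in WT and at -0.16 (-0.51 to 0.17) in KO, so its direction in KO was lost there. Slc25a4 was at -1.24 (-1.51 to -0.97) and 0.30 (0.13 to 0.47) in the same nuclei.

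Between genotypes in CM4, Ckm (0.63, 0.43 to 0.83), Slc25a3 (0.62, 0.43 to 0.81) and Slc25a4 (0.61, 0.51 to 0.71) were past 1.5-fold upward in the library labelled KO-MI over WT-MI, where 9.67% of 2512 genes were past it upward and 13.9% downward. Slc25a5 was at 0.49 (0.20 to 0.78), Vdac1 at 0.46 (0.09 to 0.84) and Ckb at 0.42 (-0.20 to 1.04), while Ckmt2 was at -0.01 (-0.55 to 0.52). For KO-Sham over WT-Sham all 7 values were below 0, from -0.55 for Slc25a5 (-0.76 to -0.34) and -0.36 for Ckm (-0.48 to -0.24) to -0.04 for Ckmt2, and none was past the fold, beside 16.3% of 3455 genes upward and 6.71% downward. Among CM4 nuclei with a low share of UMIs of markers of other cells, Slc25a4 was at 0.89 (0.63 to 1.16) for the MI pair and -0.65 (-0.83 to -0.46) for the Sham pair, while Ckm was at 0.38 (-0.09 to 0.86) and -0.69 (-1.01 to -0.36). A few nuclei carried much of the CM4 counts: the 10 nuclei with most Ckm UMIs held 10.2% to 26.4% of them per library.

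In CM5, a population that the study describes as responding to injury, the MI libraries were again the lowest for Ckm, at 286 CPM (WT-MI) and 382 CPM (KO-MI) against 839 CPM (WT-Sham) and 1189.9 CPM (KO-Sham). The log2 ratio after MI was -1.55 (-1.77 to -1.33) in WT and -1.64 (-1.80 to -1.48) in KO. All 7 genes were below 0 after MI in both genotypes, with 5 past 1.5-fold in WT and 7 in KO, against 20.2% of 5206 and 16.6% of 5810 genes downward. Upward, none of the 7 was, against 21.2% and 24.1%. TMM scaling moved all genes of the WT pair by 0.17 and those of the Sham pair by 0.12, and on the TMM scale Slc25a3 in WT was at -0.54, short of the fold. In nuclei of 5 to 10% mitochondrial UMIs, Ckm was at -1.12 (-1.47 to -0.75) in WT and -1.48 (-1.70 to -1.26) in KO, while Slc25a3 (-0.41), Slc25a4 (-0.55) and Ckb (-0.54) in WT and Ckb in KO (-0.35) were short of the fold. The median mitochondrial share of CM5 was 6.54% in WT-Sham, 4.99% in WT-MI, 8.83% in KO-Sham and 5.37% in KO-MI. Of the 10 cardiomyocyte markers, 7 were also past the fold downward after MI in each genotype (list medians -0.81 in WT and -0.83 in KO), and red blood cell markers summed to 1916, 3693, 1716 and 2192 CPM in WT-Sham, WT-MI, KO-Sham and KO-MI. The part of these in the values of CM5 was not tested. Between genotypes, Slc25a4 (0.77, 0.65 to 0.89) and Slc25a5 (0.88, 0.49 to 1.30) were past the fold upward in KO-Sham over WT-Sham, against 8.47% of genes upward and 7.91% downward. None of the 7 was in the library labelled KO-MI over WT-MI, against 5.44% and 2.06%, and there Ckmt2 was at -0.47 (-0.81 to -0.14) and Slc25a4 at 0.47 (0.39 to 0.56). Ckmt2 stood at 151 CPM in WT-Sham, 127 in WT-MI, 148 in KO-Sham and 91.2 in KO-MI, below CM1 of the same library by a log2 ratio of -1.51 (-1.73 to -1.29) in WT-MI and -1.43 (-1.70 to -1.17) in KO-MI. Against CM1, Ckmt2 was the only gene past the fold downward in the MI libraries (17.5% of genes in WT-MI and 15.8% in KO-MI), none was in the Sham libraries (15.7% in WT-Sham and 11.9% in KO-Sham), and upward only Ckb in WT-Sham was (0.85, 0.23 to 1.41), against 9.54% of genes there and 12.2%, 7.26% and 13.9% in WT-MI, KO-Sham and KO-MI.

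In CM2, the smallest population, 6 of the 7 genes, all but Ckb, had at least 50 UMIs in each comparison between libraries. Ckm stood at 667 CPM in WT-Sham, 299 in WT-MI, 918 in KO-Sham and 431 in KO-MI, and both MI libraries were again below both Sham libraries. For WT-MI over WT-Sham, Ckm was past the fold downward (-1.16, -1.63 to -0.68), against 11.4% of 1309 genes. Ckmt2 was past it upward (1.03, 0.28 to 1.85, on 18 UMIs in WT-Sham), against 12.5%. For KO-MI over KO-Sham, Ckm (-1.09, -1.39 to -0.79), Slc25a4 (-0.76, -0.91 to -0.61) and Slc25a5 (-0.65, -1.14 to -0.19) were past it downward and none upward, against 10.9% and 9.36% of 2659 genes, and Ckmt2 was at 0.18 (-0.30 to 0.66). Slc25a4 (0.66, 0.46 to 0.88) and Slc25a5 (0.77, 0.08 to 1.53, on 20 UMIs in WT-Sham) were past it upward in KO-Sham over WT-Sham. Of all genes, 15.4% were past it upward there and 11.4% downward. None of the 7 was in the library labelled KO-MI over WT-MI, against 6.59% and 4.43%. TMM scaling moved all genes by 0.19 in the Sham pair, 0.14 in the WT pair and -0.11 in the KO pair. Red blood cell markers summed to 18447 CPM in WT-MI and to 1051 to 1892 CPM in the other libraries of CM2, and their part in these values was not tested. Against CM1 of the same library, none of the 7 genes was past the fold in WT-Sham (23.3% of genes upward and 21.7% downward), KO-Sham (17.6% and 14.3%) or KO-MI (15.8% and 15.0%), and in WT-MI only Ckb was, downward on 7 UMIs (17.2% and 17.0%).

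Ckmt2 was thus higher after MI in CM1 of both genotypes and, on 18 UMIs in WT-Sham, in CM2 of WT. It was below its Sham level in CM4 and CM5, where the interval excluded 0 in CM5 of KO alone (-0.70, -1.09 to -0.30). Over all nuclei of a library, Ckmt2 was past the fold upward and Ckm downward in WT-MI over WT-Sham, as in CM1, against 10.2% and 13.7% of genes. In KO-MI over KO-Sham 4 of the 7 were past it downward and none upward, against 10.8% and 11.7%. Upward 2 were in KO-Sham over WT-Sham and none downward, against 3.96% and 3.08%, and none was in the library labelled KO-MI over WT-MI, against 1.89% upward and 1.73% downward.

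Over the 16 sums, the levels of the 7 genes were compared as log2(CPM + 10) by Pearson correlation, as a description only, since the sums share libraries, depth and mitochondrial share. Slc25a3 and Slc25a4 were the closest pair (r = 0.986), and Ckm was near both (0.974 and 0.963). Ckmt2 had values of -0.171 to -0.0518 with the other 6. Among 725 genes with a mean of 200 CPM or more, the nearest to Ckm were Fabp3, a fatty acid binding protein (0.995), Hadhb, an enzyme of fatty acid oxidation (0.989), and Mb, which encodes myoglobin (0.988). The nearest to Slc25a4 were Atp5o and Cox6c, subunits of ATP synthase and of cytochrome c oxidase, and Tnni3, cardiac troponin I (0.994 each), and those nearest to Slc25a3 were Myl2, a myosin light chain, Sod2, the mitochondrial superoxide dismutase, and Atp5a1 (0.993 each). For Slc25a5 they were Atp5mpl (0.992), Ndufb2 (0.990) and Atp5k (0.988), and for Vdac1 they were Atp5g2 (0.969), Prdx2 (0.966) and Eno3 (0.965). For Ckb they were Tnnc1, cardiac troponin C (0.940), Bri3 (0.939) and Gng5 (0.924). Ckmt2 had no near match, and its nearest were Dlc1 (0.710), Arhgap26 (0.706) and Rbfox1 (0.661).

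The other genes of energy transfer were described in CM1 from lists made by name. ATP synthase, the enzyme that makes the ATP these carriers export, was the list nearest to the carriers. Its genes and those of the other lists were chosen with earlier results of these data known, so the counts are a description. Of its 18 genes, 16 were past 1.5-fold upward in KO-Sham over WT-Sham (median log2 ratio 0.80, beside -0.12 over all genes, of which 6.21% were past it upward) and 18 were past it downward in KO-MI over KO-Sham (median -0.96, beside 0.04, with 10.9% of all genes past it downward). The extremes there were Atp5o at 1.03 and Atp5a1 at 0.53 between the Sham libraries, and Atp5h at -1.25 and Atp5a1 at -0.72 after MI. In WT-MI over WT-Sham 1 of 18 was past it downward (Atp5j, -0.59, with a list median of -0.38), against 11.9% of all genes, and in KO-MI over WT-MI none was, although all 18 were above 0 (median 0.24). Atp5g1, the most counted, stood at 779.7 CPM in WT-Sham, 604.5 in WT-MI, 1508 in KO-Sham and 737.5 in KO-MI.

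The creatine transporter Slc6a8 was flat, at 22.6 CPM in WT-Sham, 25.9 in WT-MI, 24.7 in KO-Sham and 23.1 in KO-MI. Gamt, which completes creatine synthesis, held 10 to 58 UMIs per library in CM1, and its log2 ratio for KO-MI over KO-Sham was -2.07. Of the 3 other outer membrane channel genes, Vdac3 was past the fold upward in KO-Sham over WT-Sham (0.59) and Vdac2, the most counted, was at 0.55, with Tomm40 of the protein import pore at -0.18. After MI Tomm40 was at 0.44 in WT and 0.58 in KO. Of 8 other adenine nucleotide transporters, Slc25a25, an ATP-Mg/phosphate carrier, was past the fold upward after MI in both genotypes (0.78 and 0.77), and Slc25a42, the most counted, was at -0.43 and -0.24.

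Among partners of the carrier and pore (9 genes), Bcl2, an inhibitor of cell death at the outer membrane, was past the fold upward after MI, at 1.85 in WT and 1.73 in KO. Hk1, a hexokinase that binds the pore and the most counted gene of the list, was at 0.50 and 0.67, and Hk2 was at 0.55 and 1.08. Ppif, cyclophilin D, was at -0.12 and -0.29. In the kinases that rebalance adenine nucleotides (15 genes, 9 and 10 of them with 50 UMIs), Ak1 was lower after MI (-0.69 in WT and -0.76 in KO), while Nme1 was at 1.12 in WT and 0.40 in KO, and Ak4 was at 0.73 and 1.31. Nme2, the most counted, was at -0.04 and -0.63, and Nme4 was past the fold upward in KO-MI over WT-MI (1.12, on 36 and 18 UMIs).

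Of the AMPK and AMP deaminase genes, which sense and remove AMP (10 genes, 9 with 50 UMIs), Prkag3 was at 1.90 and 2.62 after MI in WT and KO and Prkab1 at -0.83 and -0.61, while Prkaa2, the most counted, was at 0.08 and 0.21. Of the 30 other inner membrane carriers, those with 50 UMIs had medians of -0.21 in WT and 0.02 in KO after MI. The medians over all genes were -0.07 and 0.04. Mpc2, a subunit of the pyruvate carrier and the most counted, was at -0.27 and -0.85 after MI and 0.73 in KO-Sham over WT-Sham. The highest ratio after MI was that of Slc25a33, a pyrimidine nucleotide carrier, in WT (0.66) and of Slc25a22, a glutamate carrier, in KO (0.67). The lowest was that of Slc25a53 in WT (-0.66) and of Mpc2 in KO.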

How the data were processed

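Single nuclei of neonatal mouse ventricles were sequenced in 4 libraries, 1 per group, on the 10x Genomics platform. The deposited counts are UMIs per gene and nucleus that the authors made with Cell Ranger on a GRCm38 (mm10) pre-mRNA reference, in which introns are counted, and filtered in Seurat 3 by the number of genes per nucleus after removing doublets with Scrublet and clusters of other cells. The aligner's version and the annotation release are not given in the sources used here. The percent of mitochondrial UMIs per nucleus was deposited by the authors with the population labels, and 12 other deposited columns per nucleus were not used.

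UMIs were summed by library and population, scaled to CPM, and compared by log2 ratios with exact 95% intervals (Poisson for levels, binomial for ratios), computed in Python 3.11.15 with scipy 1.17.1 and pandas 2.3.3. With 1 library per group there is no test. A gene counted as past the fold at 1.5-fold (log2 0.585), given at least 50 UMIs in the 2 sums together. TMM factors came from edgeR 4.0.16 in R 4.3.3, where no model was fitted. The interval of a ratio, that of an isoform ratio and the 1.5-fold call were tested on simulated counts with known answers. The simulated counts had only the counting error that the intervals assume, so spread between pools was not covered. The other steps were not tested in this way.

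Named besides the 7 genes were, per list, the most counted gene and the highest and lowest ratio of a comparison, and per gene the 3 nearest by correlation of log2(CPM + 10) among genes with a mean of at least 200 CPM. The genes and lists were chosen with earlier results of these data known. Alternatives were other scaling (TMM, median-of-ratios factors, totals without the 13 mitochondrial genes), nuclei thinned to 1000 UMIs (1 shallower CM1 nucleus left out, of WT-Sham), nuclei of 5 to 10% mitochondrial UMIs, nuclei with the transferred label, all nuclei and other minimum counts. Ratios between genes of different families, the CM2, CM4 and CM5 alternatives and nuclei at or under the median share of UMIs of markers of other cells (512 to 1417 CM1 nuclei per library) were chosen after the data were seen.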

Additional observations from a re-analysis of the deposited data

Results flagged for a closer look

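In CM4 the difference between genotypes ran in opposite directions in the MI and the Sham libraries for 4 of the 7 genes, with intervals that exclude 0 on both sides. The difference between these ratios was not tested, since each group held 1 library. Ckm, the muscle creatine kinase, had a log2 ratio of 0.63 for the library labelled KO-MI over WT-MI and -0.36 for KO-Sham over WT-Sham. Slc25a3, the phosphate carrier, was at 0.62 and -0.22, and the ADP/ATP carriers Slc25a4 and Slc25a5 were at 0.61 and -0.22 and at 0.49 and -0.55. In CM1 the same 4 genes were higher in KO in both pairs. The median mitochondrial share of CM4 nuclei was 14.6% in WT-Sham, 10.8% in WT-MI, 11.6% in KO-Sham and 9.47% in KO-MI, and red blood cell markers summed to 12805, 8411, 7833 and 3538 CPM, and their part in these ratios was not tested. Nuclei of 10 to 20% mitochondrial UMIs gave 0.65 and -0.30 for Ckm and 0.63 and -0.15 for Slc25a4. Among CM4 nuclei where markers of other cells took a low share, Ckm was at 0.38 (-0.09 to 0.86) for the MI pair, an interval that holds 0, and at -0.69 (-1.01 to -0.36) for the Sham pair, and Slc25a4 was at 0.89 (0.63 to 1.16) and -0.65 (-0.83 to -0.46). In these nuclei 21 of the 28 CM4 ratios lay outside the interval found in all CM4 nuclei.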

How the results depend on the processing

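No paired analysis was possible because each group held 1 library. In CM1 the log2 ratio of Ckm after MI ran from -1.11 to -0.78 in WT and from -1.33 to -1.06 in KO over the alternatives, that of Ckmt2 from 0.69 to 1.06 and from 0.18 to 0.44, and the difference of the Ckb to Ckm ratio from 0.69 to 1.08 and from 1.08 to 1.26. In KO-Sham over WT-Sham, 5 of the 7 genes were past 1.5-fold upward with TMM factors and 5 with median-of-ratios factors, in place of 3. Of all genes, 9.69% and 9.05% were past it upward with these factors, in place of 6.21%. Downward in KO-MI over WT-MI, 1 of the 7 was past it in thinned nuclei, in place of 0. Nuclei where the markers of other cells took a low share also gave 1. Of all genes, 2.39% and 1.94% were past it downward in these 2 settings, in place of 1.81%. In thinned nuclei the log2 difference of the Slc25a5 to Slc25a4 ratio was 0.069 for KO-MI over WT-MI, where its sign turned from -0.08. It was 0.20 for KO-MI over KO-Sham, in place of 0.03. In CM4 nuclei where markers of other cells took a low share, the log2 difference of Ckb to Ckm for KO-MI over KO-Sham turned from 0.79 to -0.40 (-2.18 to 1.08), and 21 of 28 log2 ratios of single genes moved beyond their counting intervals. The cause was not tested. Of the 28 signs of single genes in CM1, TMM factors turned that of Ckb for WT-MI over WT-Sham (-0.06 to 0.01) and of Ckmt2 for KO-Sham over WT-Sham (-0.03 to 0.09). Median-of-ratios factors and thinning each kept 26 signs, all nuclei kept 28, and every other alternative kept 27. Of the 4 signs of each isoform ratio, thinning kept 3 for Ckb to Ckm. For Slc25a5 to Slc25a4, thinning and all nuclei each kept 3. Nuclei with 0 UMIs of markers of other cells gave no value, since 7 to 83 CM1 nuclei per library were left.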
